A study of Drosophila melanogaster with 15 samples.

Results

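The genes described here are the nuclear genes of mitochondrial oxidative phosphorylation, followed across sorted progenitor cells of the adult Drosophila melanogaster midgut. They were chosen by symbol alone: every gene whose symbol begins with ND-, UQCR-, COX or ATPsyn was taken, and genes of the mitochondrial genome were dropped. The rule found 80 of the 17558 genes in the deposited table, namely 40 of complex I, 9 of complex III, 16 of complex IV and 15 of complex V. Of these, 61 passed the filter for testing, which asks for 1 FPKM or more in 3 or more libraries. FPKM, the unit of the table, is a read count scaled by gene length and library depth, so levels of different genes can be set side by side. A symbol prefix misses subunits that carry other names. Such are blw (the alpha subunit of the ATP synthase), Cyt-c1 and RFeSP (complex III), and levy and cype (complex IV). Of these, blw and Cyt-c1 are described apart below.

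The study sequenced RNA of GFP-labelled cells that were sorted from elastase-digested midguts of day 7 adults and amplified before library preparation. The 15 libraries form 5 groups of 3, labelled ttk-RNAi, dpn OE, Nicd OE, seq&Nicd OE and Ctrl. ttk-RNAi is labelled as RNA interference against ttk, which encodes a transcriptional repressor. OE stands for overexpression: of dpn, which encodes a transcription factor of the Hes family, of Nicd, the intracellular domain of the receptor Notch, or of seq together with Nicd. Ctrl is the wild type. The labels give no driver line, construct, sex, batch or sorting day, and nothing in them ties a replicate to its own flies or sort. The p-values therefore measure the spread among these libraries alone, and that spread may be technical.

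Oxidative phosphorylation runs in the inner mitochondrial membrane. Complexes I, III and IV pass electrons from NADH through ubiquinone and cytochrome c to oxygen and pump protons across the membrane, complex II feeds in electrons from succinate without pumping, and complex V, the ATP synthase, lets the protons back to make ATP. A few subunits of complexes I, III, IV and V are encoded by the mitochondrial genome and all others by the nucleus. Drosophila carries extra copies of many of these nuclear genes, a number of which are known to be expressed mainly in the testis. In the adult midgut, stem cells and their daughters make up the progenitors, and the differentiated cells are absorptive enterocytes and hormone-secreting enteroendocrine cells.

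The check of the labels went against those of ttk-RNAi, Nicd OE and seq&Nicd OE, as far as the gene named by a label checks it. ttk itself stood at 113, 87.0 and 100.1 FPKM in the libraries labelled ttk-RNAi and at 43.6, 11.1 and 36.1 FPKM in Ctrl, so the targeted gene was higher where the label names its knockdown (adjusted p = 0.00089). dpn averaged 6.09 ± 1.30 FPKM in dpn OE and 2.37 ± 0.80 FPKM in Ctrl (SD, n = 3; adjusted p = 0.0082), far below the means of 290 FPKM in the libraries labelled ttk-RNAi and 225 FPKM in seq&Nicd OE (log2 6.46 and 6.06 over Ctrl, adjusted p = 1.9e-10 and 1.7e-09), whose labels do not name dpn. N, the Notch gene, averaged 21.8 ± 6.39 FPKM in Nicd OE and 18.3 ± 5.47 FPKM in seq&Nicd OE, against 63.0 ± 18.5 FPKM in Ctrl, and so was lower where the labels name overexpression of a part of it (log2 -1.48 and -1.73, adjusted p = 0.0012 and 0.00027). The labels do not describe the construct against ttk or say how much of N the Nicd construct holds. No value here separates reads of a construct from those of the gene itself. seq was listed at 0 in every library. Group names below therefore stand for the labels of the libraries, and each direction is drawn under that limit. Estimated depth (1e6 reads) was 51.1 to 56.0 in the libraries labelled ttk-RNAi and 24.7 to 38.4 in the other groups. Reads assigned to genes made up 33.7% to 48.5% (Nicd OE) or 39.6% to 48.9% (seq&Nicd OE) of that depth, against 56.4% to 65.6% in the remaining 3 groups, and FPKM as deposited carry that difference. Ctrl replicate 2 stood apart: its mean correlation with the other Ctrl libraries was 0.92. The summed level of 11 enteroendocrine genes was 946 to 7489 FPKM in the other groups, against 12754 to 61777 FPKM in Ctrl with replicate 2 highest, and NPF alone made up 55989 FPKM of that highest sum. Of the 11, 5 were called lower and 1 higher than Ctrl in the libraries labelled ttk-RNAi (13.7% and 30.7% of all genes tested). dpn OE had 8 lower and 0 higher (12.5% and 44.6%). Nicd OE had 7 lower and 2 higher (34.2% and 5.07%). For seq&Nicd OE the counts were 6 lower and 3 higher (21.2% and 13.3%). These counts are in FPKM, and single genes thus went against the sum. The summed progenitor markers (Sox21a, Sox100B, zfh2 and klu) stood at 298 to 306 FPKM in the libraries labelled ttk-RNAi and at 205 to 305 in Ctrl. dpn OE had 232 to 288, Nicd OE 87.3 to 111 and seq&Nicd OE 99.6 to 137. The 7 listed markers also include esg, Dl and hdc, which were not analysed here, so the sum rests on 4 of them. The sum of 11 enterocyte genes was 85.8 to 122 FPKM in the libraries labelled ttk-RNAi, dpn OE had 605 to 692, Nicd OE 278 to 440, seq&Nicd OE 169 to 512 and Ctrl 165 to 643.

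Because of these differences each value is given on 2 scales. The first is FPKM as deposited, tested as log2(FPKM + 1). The second divides each FPKM by the library's own median over the 8209 genes tested, and is written as times the median gene for levels and as median scaling for changes. Every adjusted p is from limma over all 8209 genes of a comparison, and a gene is called where it is under 0.05.

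The members were highly expressed genes in all 5 groups. The median member measured stood at 36.7 ± 0.73 FPKM in the libraries labelled ttk-RNAi, at 62.3 ± 6.53 in dpn OE, at 26.0 ± 7.78 in Nicd OE, at 32.1 ± 7.24 in seq&Nicd OE and at 40.7 ± 13.9 in Ctrl (SD over 3 libraries each). In units of the median gene these were 6.62 ± 0.14, 9.0 ± 0.17, 9.03 ± 0.57, 8.41 ± 0.46 and 10.2 ± 5.85 in the same order of groups. The order of the groups thus depended on the scale: dpn OE was highest and Nicd OE lowest in FPKM, while on the relative scale Ctrl was highest and the libraries labelled ttk-RNAi were lowest. Ctrl ran from 6.73 to 17 times the median gene, a range that holds all libraries of dpn OE and of both Nicd groups, while the libraries labelled ttk-RNAi stood just below it at 6.46 to 6.71, so on that scale the position of Ctrl rests on the spread of its own libraries. In bulk RNA a smaller share of cells with high respiratory expression and less RNA of these genes per cell cannot be told apart.

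The median genes of complexes IV and V stood above those of complexes I and III in every group. The median complex IV gene stood at 144 ± 10.8 FPKM in the libraries labelled ttk-RNAi, at 182 ± 16.8 in dpn OE, at 65.3 ± 27.7 in Nicd OE, at 82.7 ± 30.1 in seq&Nicd OE and at 134 ± 76.3 in Ctrl. For complex V the medians were 123 ± 3.40, 164 ± 13.8, 78.4 ± 33.7, 97.9 ± 37.4 and 135 ± 21.6 FPKM in that order. Complex I had medians of 26.9 ± 2.63, 40.3 ± 2.46, 17.1 ± 6.72, 20.4 ± 5.76 and 26.0 ± 6.21 FPKM, again in that order. Complex III was close to complex I, with 29.1 ± 1.72 FPKM in the libraries labelled ttk-RNAi, 56.9 ± 4.50 in dpn OE, 21 ± 8.11 in Nicd OE, 24.9 ± 10.5 in seq&Nicd OE and 43.8 ± 20.7 in Ctrl. In FPKM every complex had its highest group median in dpn OE and its lowest in Nicd OE, and in Ctrl the spread between libraries was as wide as most of these differences. A few genes carried much of the sum: ATPsynC alone, which encodes the ring subunit of the proton-driven rotor, held 8.08% to 18.2% of the summed FPKM of all 80 members. Together with ATPsynbeta, ATPsynCF6, ATPsynB and COX7B it held 26.9% to 43.4%.

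**Figure D1:**
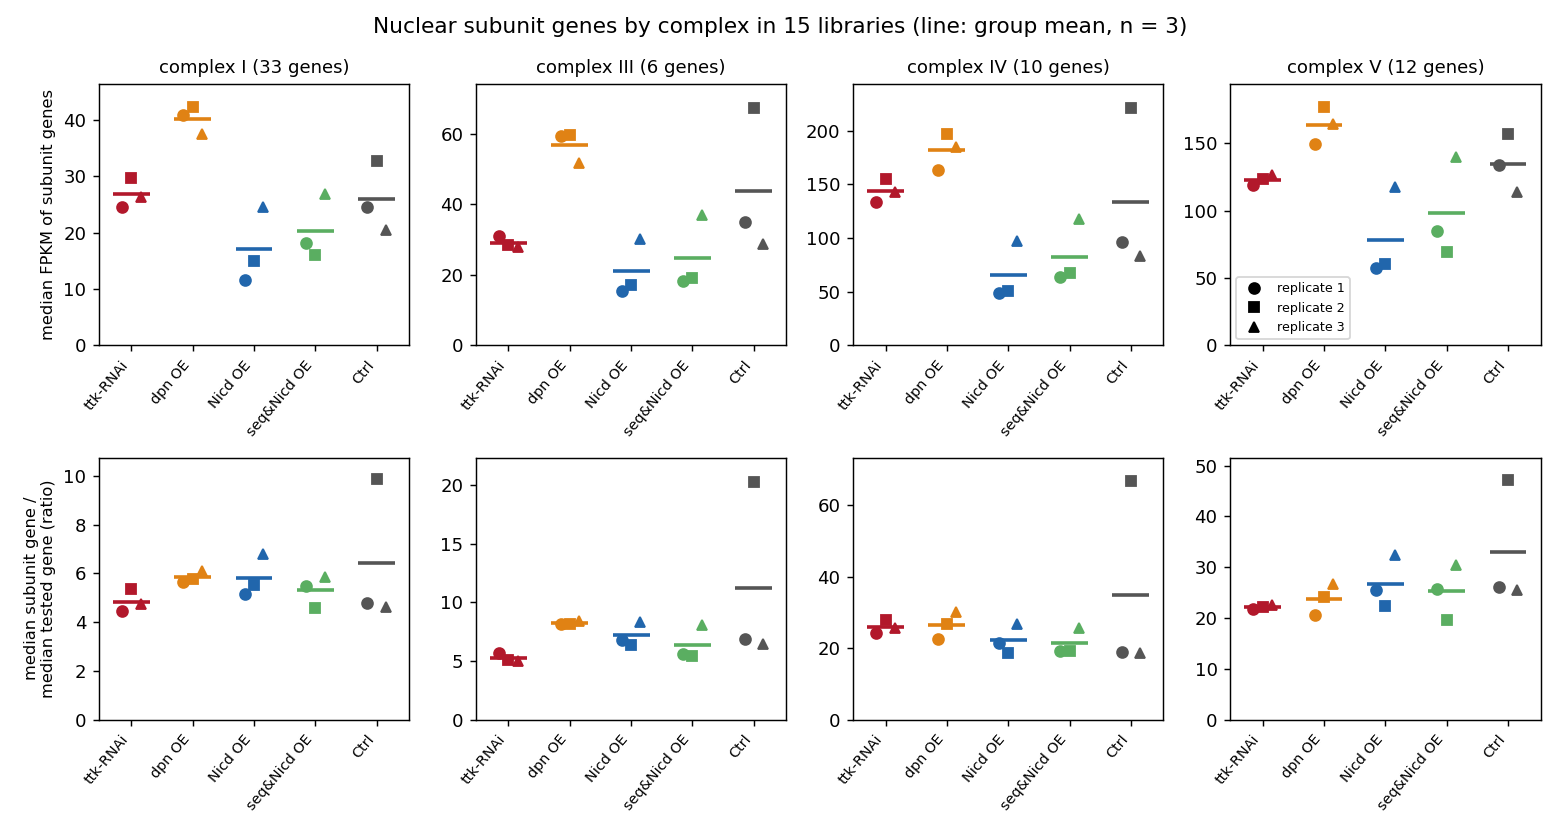
Median level of the measured members of each complex in each library, in FPKM (top row, y axis) and in units of the median tested gene of the same library (bottom row), for ttk-RNAi, dpn OE, Nicd OE, seq&Nicd OE and Ctrl along the x axis. Circles, squares and triangles are replicates 1, 2 and 3 and the line is the group mean. In the top row the group mean of dpn OE is highest for every complex. Ctrl replicate 2 (square) is the highest single library there for complexes III and IV. In the bottom row Ctrl replicate 2 stands above all other libraries for every complex.

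Libraries of 1 group differed in a way that most members shared. Over the 56 measured members that are not duplicate copies, the median in Ctrl was 43.9, 63.2 and 33.6 FPKM in replicates 1, 2 and 3, and replicate 2 was the highest of the 3 for 45 of the 56 genes. On the relative scale the Ctrl medians were 8.58, 19.1 and 7.56 times the median gene, and replicate 2 was the highest for 51 of the 56. The summed enteroendocrine genes stood at 12754, 61777 and 35636 FPKM in the same 3 libraries, so replicate 2 was highest for both, while replicates 1 and 3 stood in the opposite order. The part of those cells in the members' levels was not tested. In Nicd OE the medians were 21.8, 24.4 and 40.3 FPKM with replicate 3 highest for all 56 genes, but 9.65, 9.06 and 11.1 times the median gene. In seq&Nicd OE they were 30.3, 31.1 and 48.6 FPKM with replicate 3 highest for 52 of 56, but 9.17, 8.84 and 10.6 times the median gene. For these groups the relative scale brought the libraries together, and the median coefficient of variation was 14% for Nicd OE and 13.8% for seq&Nicd OE, against 30.5% and 28.3% in FPKM. In Ctrl it did the opposite, with 56.5% on the relative scale and 34.6% in FPKM, while the libraries labelled ttk-RNAi (6.2% in FPKM) and dpn OE (9.46%) were tight on both. Some members made the offset of Ctrl replicate 2 far larger than others: ND-75, which encodes the largest catalytic-core subunit of complex I, stood at 19.7, 97.6 and 19.6 FPKM in Ctrl, and ATPsynD of the peripheral stalk of complex V at 78.5, 328 and 72.9 FPKM. ND-42 went the other way with 62.0, 32.7 and 48.6 FPKM, as did ATPsynbeta with 256, 126 and 215 FPKM.

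**Figure D2:**
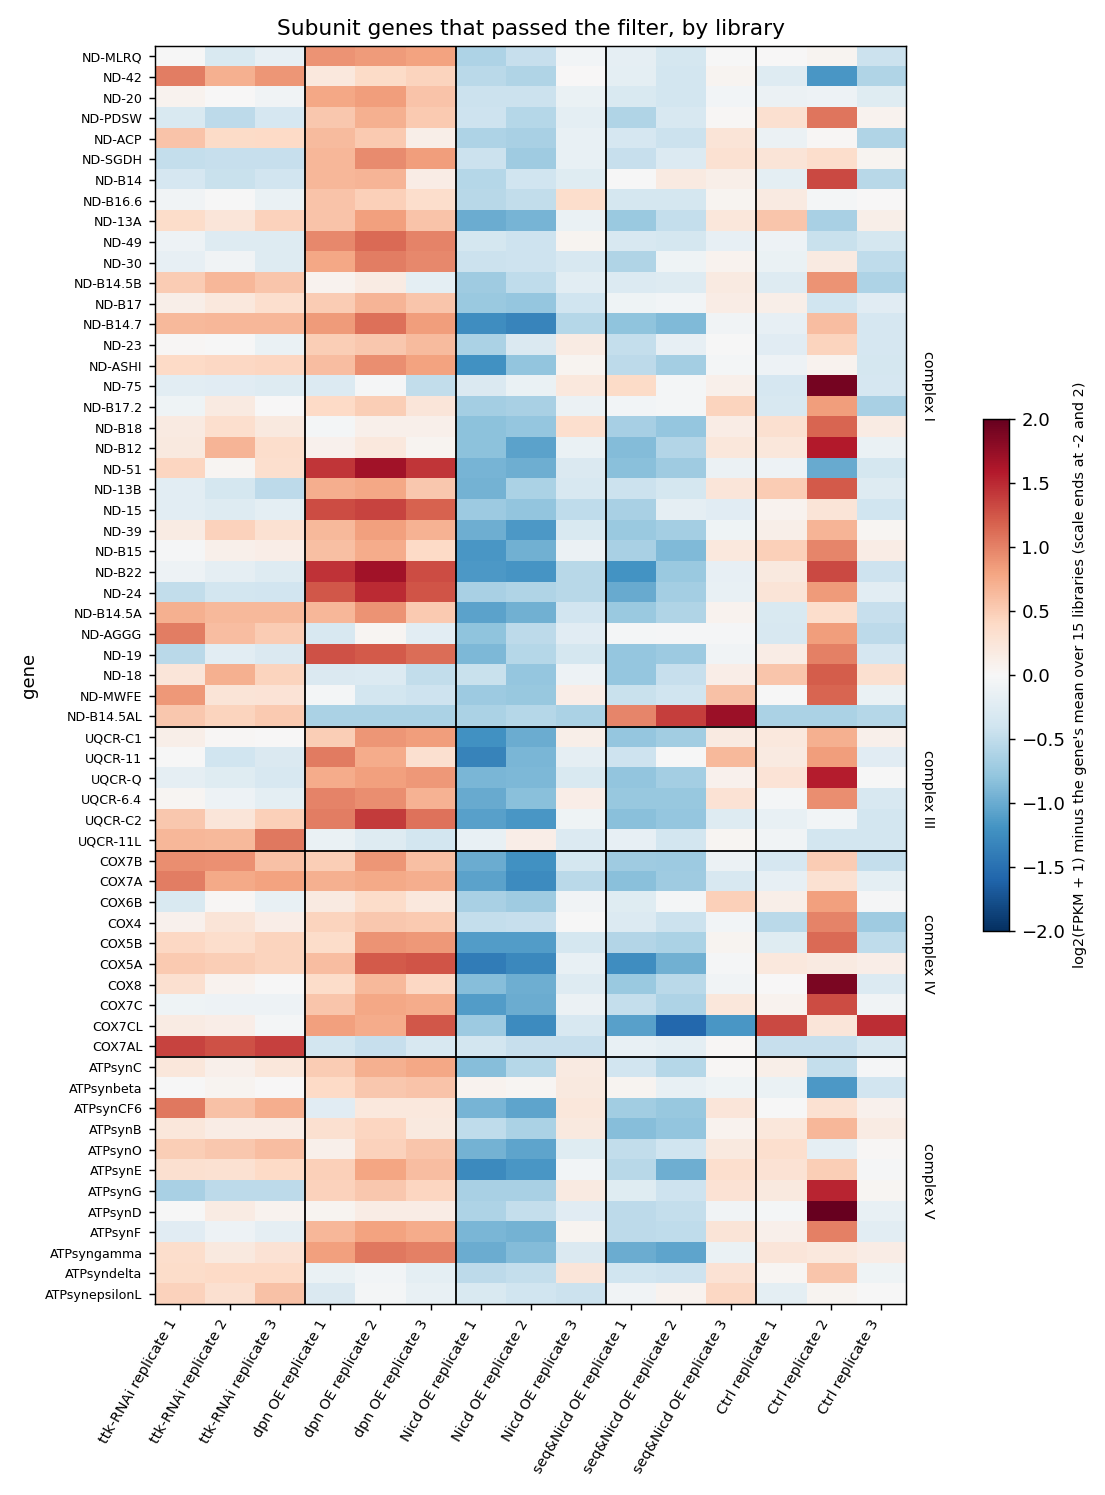
Each of the 61 measured members (rows, grouped by complex) in each of the 15 libraries (columns, grouped as ttk-RNAi, dpn OE, Nicd OE, seq&Nicd OE and Ctrl), shown as log2(FPKM + 1) minus the gene's mean over the 15 libraries on a scale of -2 to 2. Most rows are high in dpn OE and low in Nicd OE replicates 1 and 2, and Ctrl replicate 2 is the column of the Ctrl group that is high for 45 of the 56 members without duplicates.

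In dpn OE 5 of the 7 catalytic core genes of complex I rose over Ctrl in FPKM, led by ND-51, and with median scaling 2 rose and 1 fell. UQCR-C2 of complex III rose on both scales. Of the 61 members measured, 23 rose (37.7%) and 1 fell (1.64%) in FPKM, where 44.6% of all genes tested rose and 12.5% fell, so the share that rose was not above the background of this comparison. The members' median log2 change was 0.44 and that of all tested genes 0.50. With median scaling 4 rose and 9 fell (22.4% and 25.0% of all genes), and the members' median was -0.12. This balance rested on Ctrl replicate 2: without it 18 rose and 4 fell with median scaling and the median was 0.14, while leaving out each other library gave 2 to 3 rises and 3 to 16 falls. In FPKM 32 rose without Ctrl replicate 2, and 15 did without Ctrl replicate 3 or dpn OE replicate 2. In FPKM all 3 dpn OE libraries were above all 3 Ctrl libraries for 24 members and below for 2, against 46.7% and 14.2% of all genes tested. All 4 comparisons with Ctrl share the same 3 Ctrl libraries.

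By complex, 16 of 33 genes of complex I rose in dpn OE and 1 fell, and rises numbered 1 of 6 in complex III, 3 of 10 in complex IV and 3 of 12 in complex V. Of all genes tested 44.6% rose, near the 48.5% of complex I, and differences between complexes were not tested. The 7 genes of the catalytic core of complex I, which carry its flavin, iron-sulfur clusters and quinone site, had a median log2 change of 1.03 in FPKM, where 5 of them rose, and of 0.36 with median scaling, where 2 rose and 1 fell. ND-51, which encodes the flavin-bearing subunit that oxidises NADH (chr2L:6060842-6062757, minus strand, BDGP6.54), stood at 50.1, 59.8 and 50.05 FPKM in dpn OE and at 16.7, 8.51 and 13.9 FPKM in Ctrl. Its lowest dpn OE library was well above its highest Ctrl library. The change was 4.09-fold, or 1.99 ± 0.28 on the log2 scale (SE, adjusted p = 4.1e-05), and 1.31 with median scaling (adjusted p = 3.1e-05). ND-49, a core subunit near the quinone site (chr4:568296-571554, minus strand), stood at 76.3, 85.5 and 77.5 FPKM in dpn OE and at 35.9, 28.1 and 29.9 FPKM in Ctrl. Here too no library overlapped, and the 2.55-fold change was called on both scales (log2 1.33 ± 0.19, adjusted p = 6.3e-05; 0.63 with median scaling, adjusted p = 0.0040). Among the other core genes ND-30, ND-24 and ND-20 rose 2.11-fold, 2.03-fold and 1.85-fold in FPKM (adjusted p = 0.00095, 0.0036 and 0.0010), and with median scaling their log2 changes were 0.38, 0.36 and 0.18 and none was called. ND-23 and ND-75, the remaining core genes, were not called in FPKM: ND-23 averaged 43.1 ± 2.33 FPKM in dpn OE and 29.0 ± 9.43 FPKM in Ctrl, and ND-75 averaged 20.9 ± 3.63 FPKM in dpn OE and 45.6 ± 45.0 FPKM in Ctrl, where replicate 2 carried the mean. With median scaling ND-75 fell (log2 -1.35, adjusted p = 0.046).

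Accessory genes of complex I moved in both directions. ND-15 stood at 40.9, 42.3 and 37.5 FPKM in dpn OE and at 16.8, 19.3 and 11.8 FPKM in Ctrl, a 2.52-fold rise called on both scales (adjusted p = 0.00014 and 0.037). ND-MLRQ, the complex I member with the highest mean, rose 1.95-fold to 295, 283 and 274 FPKM in dpn OE, against 157, 163 and 116 FPKM in Ctrl (log2 0.97 ± 0.21, adjusted p = 0.0012; 0.27 with median scaling, adjusted p = 0.30); its mammalian counterpart is assigned to complex IV. ND-18, the counterpart of mammalian NDUFS4, was the only member that fell in FPKM, and it is named because it was alone. It stood at 3.97, 4.01 and 3.31 FPKM in dpn OE and at 7.94, 13.2 and 6.58 FPKM in Ctrl, without overlap. The fall was 2.45-fold (log2 -1.05, adjusted p = 0.0047) and deeper with median scaling (log2 -1.62, adjusted p = 0.00051). ND-B22 rose 1.97-fold with all libraries and 3.14-fold without Ctrl replicate 2, in which it stood at 28.6 FPKM against 12.5 and 7.89 FPKM in the other Ctrl libraries.

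Outside complex I the largest rise was that of UQCR-C2, a core protein of complex III (chr3L:16584124-16586111, plus strand), at 40.3, 52.8 and 42.3 FPKM in dpn OE and 17.4, 18.5 and 14.8 FPKM in Ctrl. The libraries did not overlap, and the 2.67-fold change was called on both scales (log2 1.36 ± 0.27, adjusted p = 0.00070; 0.68 with median scaling, adjusted p = 0.020). ATPsynbeta, the catalytic subunit of the ATP synthase, stood at 371, 408 and 417 FPKM in dpn OE and rose 2.0-fold over Ctrl (log2 1.06, adjusted p = 0.0012; 0.35 with median scaling, adjusted p = 0.17). ATPsynC stood at 980.0, 1123 and 1178 FPKM in dpn OE and at 744, 495 and 673 FPKM in Ctrl. It was 1.72-fold higher (log2 0.80 ± 0.26, adjusted p = 0.016), a call lost without dpn OE replicate 3 (adjusted p = 0.052) and with median scaling (log2 0.09, adjusted p = 0.71). In complex IV, COX5A, COX7A and COX7B rose 1.85-fold, 1.66-fold and 1.63-fold in FPKM, and with median scaling none of these was called. Median scaling instead called falls of COX6B and of 3 complex V genes, ATPsynB, ATPsynCF6 and ATPsyndelta, each of which differed from Ctrl by at most 1.26-fold in FPKM. When each of the 6 libraries was left out in turn, 13 of the 23 rises and the fall of ND-18 were called every time. Those 13 were ND-15, ND-20, ND-24, ND-30, ND-42, ND-49, ND-51, ND-ASHI, ND-B17, ND-MLRQ, UQCR-C2, COX7A and ATPsynbeta.

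**Figure D3:**
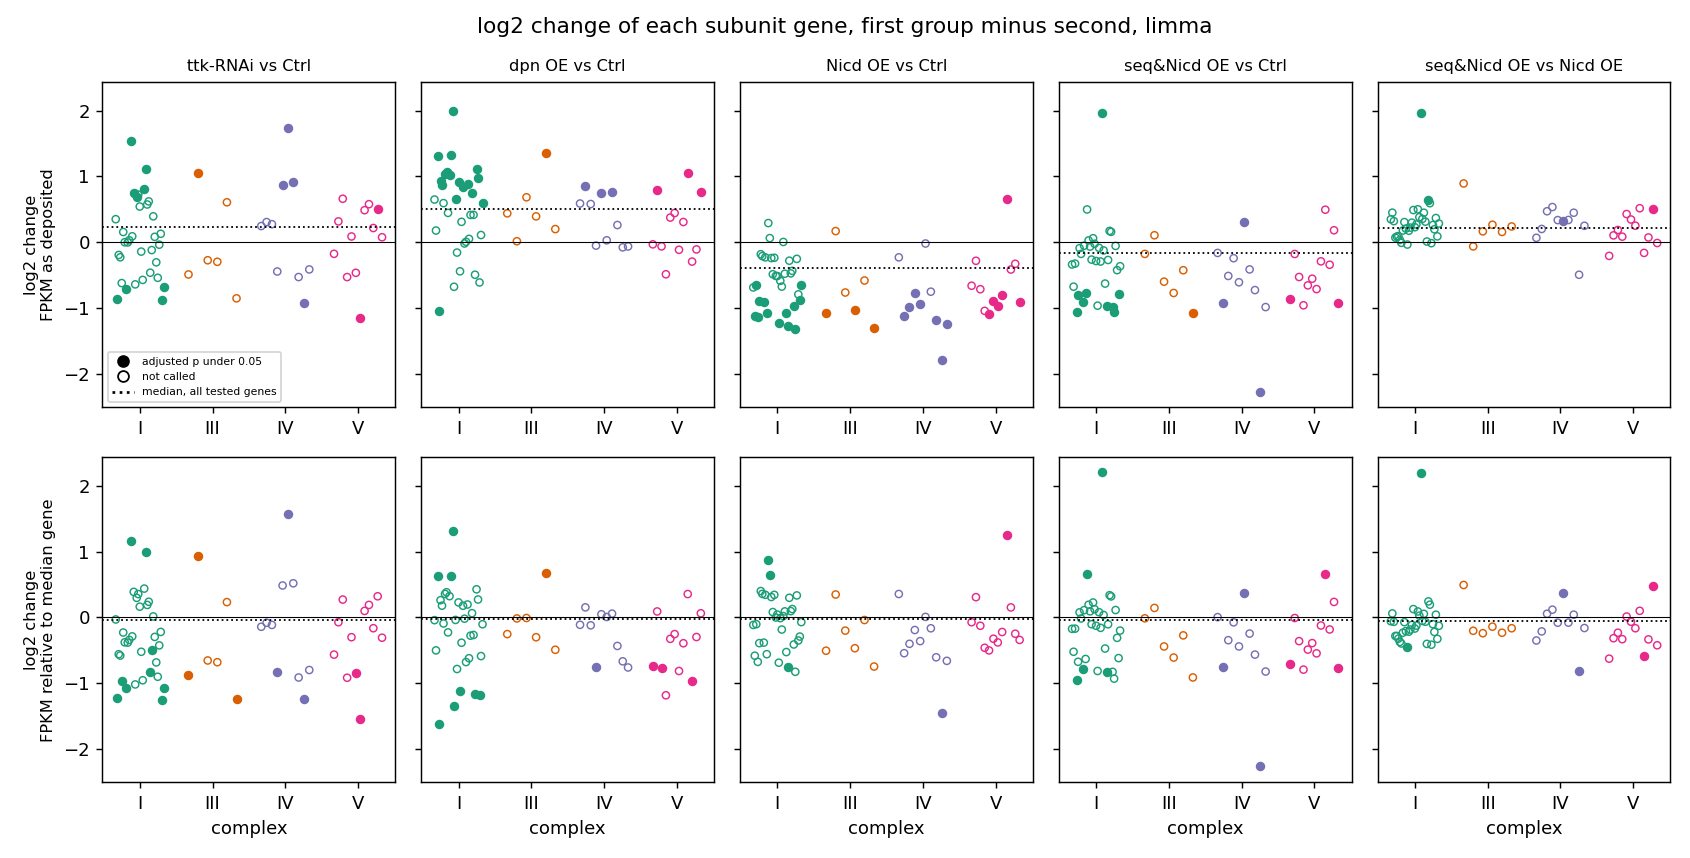
Log2 change of each measured member (points, grouped by complex along the x axis) in the 5 comparisons, on log2(FPKM + 1) as deposited (top row) and relative to the median gene of each library (bottom row). Filled points have an adjusted p under 0.05 in limma and the dotted line is the median of all 8209 genes tested; in dpn OE the top row lies mostly above 0 and the bottom row mostly around or below it.

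In the libraries labelled ttk-RNAi the members split, with some subunits of complexes I and IV above Ctrl and others below it. Of the 56 measured members that are not duplicate copies, 6 rose (10.7%) and 5 fell (8.93%), below the 30.7% and 13.7% of all genes tested. The copies, most of which passed the filter through these libraries, are described below and add 4 rises and 1 fall. The median log2 change was 0.015 for the 56, 0.08 for all 61 members and 0.24 for all genes. With median scaling 1 of the 56 rose and 12 fell (24.0% and 24.2% of all genes), and over all 61 the members' median was -0.31. The excess of falls rested on Ctrl replicate 2. With the copies included, 15 of the 61 rose and 10 fell with median scaling without that library, and the median was -0.03. With it the counts were 4 and 13, and leaving out each other library gave 2 to 4 rises and 6 to 26 falls. In FPKM 3 to 5 rose and 2 to 3 fell without a library labelled ttk-RNAi, copies included. All 3 libraries labelled ttk-RNAi were above all 3 of Ctrl for 14 of the 56 that are not copies and below for 7. Of all genes tested 39.7% and 17.6% were so.

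ND-42, an accessory subunit of complex I (chr3R:22027709-22029393, plus strand), rose most among the well expressed genes. It stood at 152, 122 and 138 FPKM in the libraries labelled ttk-RNAi and at 62.0, 32.7 and 48.6 FPKM in Ctrl. Every library labelled ttk-RNAi was above every library of all 4 other groups. The 2.87-fold rise (log2 1.54 ± 0.25, adjusted p = 0.00012) was 1.16 with median scaling (adjusted p = 6.8e-05) and was called without each library in turn. COX7A, a small subunit of complex IV, stood at 357, 295 and 307 FPKM in the libraries labelled ttk-RNAi and at 156, 217 and 153 FPKM in Ctrl. It rose 1.82-fold without overlap (log2 0.88 ± 0.23, adjusted p = 0.0061), and with median scaling the change was 0.48 and not called (adjusted p = 0.11). COX7B, another small subunit, stood at 423, 420.1 and 336 FPKM in the libraries labelled ttk-RNAi and at 176, 318 and 161 FPKM in Ctrl. Its 1.80-fold rise (log2 0.91 ± 0.29, adjusted p = 0.020) was lost without any of 4 libraries (adjusted p = 0.062 to 0.081) and with median scaling (adjusted p = 0.19). ND-51 rose 1.69-fold in FPKM (adjusted p = 0.037), less than in dpn OE, though the difference between these groups was not tested here; the call was lost without some libraries (adjusted p up to 0.13).

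The largest fall in the libraries labelled ttk-RNAi was that of ATPsynG, a membrane subunit of complex V. It stood at 62.9, 68.4 and 68.4 FPKM there and at 114, 288 and 102 FPKM in Ctrl. The groups did not overlap. The fall was 2.53-fold, or 1.62-fold without Ctrl replicate 2 (log2 -1.16 ± 0.34, adjusted p = 0.012; -1.55 with median scaling, adjusted p = 0.0036). ND-PDSW of the membrane arm of complex I stood at 54.0, 46.5 and 52.6 FPKM in the libraries labelled ttk-RNAi and at 83.9, 141 and 70.1 FPKM in Ctrl. It fell 1.93-fold without overlap (log2 -0.87 ± 0.25, adjusted p = 0.011; -1.26 with median scaling, adjusted p = 0.0026). These falls were called without each library in turn. ND-13B stood at 15, 13.5 and 12 FPKM in the libraries labelled ttk-RNAi and at 25.6, 42.6 and 14.6 FPKM in Ctrl, so that the groups overlapped. Its 2.04-fold fall (log2 -0.86 ± 0.31, adjusted p = 0.035) was lost in 5 of 6 fits that left out a library (adjusted p = 0.062 to 0.14), though it was called with median scaling (log2 -1.23, adjusted p = 0.0065). ND-24, the core gene that rose in dpn OE, stood at 7.06, 7.77 and 7.62 FPKM in the libraries labelled ttk-RNAi and at 12.5, 19.3 and 8.80 FPKM in Ctrl, a 1.81-fold fall (adjusted p = 0.037) lost in 5 of 6 such fits (adjusted p = 0.055 to 0.13). In complex III, UQCR-Q stood at 28.1, 26.8 and 25.3 FPKM in the libraries labelled ttk-RNAi, below all Ctrl values of 38.5, 96.4 and 31.6 FPKM. That difference was not called in FPKM (log2 -0.85, adjusted p = 0.057) and was called with median scaling (log2 -1.24, adjusted p = 0.016).

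Members stood lower in Nicd OE than in Ctrl in FPKM, but most of this was no longer seen against the median gene. Of 61 measured, 28 fell (45.9%) and 1 rose (1.64%), where 34.2% of all genes tested fell and 5.07% rose. The median log2 change was -0.72 for the members and -0.40 for all genes. With median scaling 2 fell and 3 rose (18.4% and 18.1% of all genes), and the members' median was -0.19. Without Ctrl replicate 2 the counts with median scaling were 1 fall and 17 rises and the median was 0.20, while leaving out each other library gave 1 to 6 falls and 3 to 4 rises. In FPKM 10 fell without Nicd OE replicate 1, 11 without replicate 2 and 40 without replicate 3. In FPKM all 3 Nicd OE libraries were below all 3 Ctrl libraries for 24 members and above for 1, against 34.2% and 5.69% of all genes. The share of reads assigned to genes was lower in Nicd OE, as given above. When FPKM were rescaled to equal assigned reads, an alternative chosen after seeing the data, 1 member fell and 4 rose.

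By complex, 13 of 33 genes of complex I, 3 of 6 of complex III, 7 of 10 of complex IV and 5 of 12 of complex V fell in Nicd OE in FPKM. Of all genes tested 34.2% fell, near the 39.4% of complex I and the 41.7% of complex V, and differences between complexes were not tested. In the catalytic core of complex I 1 of 7 genes fell, and its median log2 change was -0.23 in FPKM but 0.34 with median scaling. ND-B15, an accessory subunit of the membrane arm, stood at 5.86, 6.84 and 13 FPKM in Nicd OE and at 20.2, 29.2 and 15.9 FPKM in Ctrl, without overlap. Its 2.54-fold fall was called on both scales (log2 -1.28 ± 0.32, adjusted p = 0.0055; -0.76 with median scaling, adjusted p = 0.048). ND-B22 stood at 4.36, 4.26 and 7.11 FPKM in Nicd OE and at 12.5, 28.6 and 7.89 FPKM in Ctrl. It fell 3.12-fold, or 1.95-fold without Ctrl replicate 2 (log2 -1.32 ± 0.36, adjusted p = 0.010; -0.83 with median scaling, adjusted p = 0.11), and 26.1% of its exon bases are shared with CG31855. UQCR-Q, a small subunit of complex III, stood at 16.5, 16.62 and 25.7 FPKM in Nicd OE and at 38.5, 96.4 and 31.6 FPKM in Ctrl. It fell 2.83-fold, or 1.79-fold without Ctrl replicate 2 (log2 -1.31 ± 0.35, adjusted p = 0.0082; -0.75 with median scaling, adjusted p = 0.14).

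Among the most abundant genes of the other complexes, COX7A fell 1.92-fold to 82.3, 72.4 and 119.6 FPKM in Nicd OE, without overlap with Ctrl (adjusted p = 0.0051; with median scaling log2 -0.36, adjusted p = 0.26). COX6B, at 99.4, 94.9 and 149 FPKM in Nicd OE and 169, 277 and 153 FPKM in Ctrl, fell 1.75-fold (adjusted p = 0.030). UQCR-C1 and UQCR-11 fell 1.95-fold and 2.13-fold (adjusted p = 0.021 and 0.024), with Nicd OE replicate 3 inside the Ctrl range for both. Ctrl replicate 2 moved the fold of 4 further called genes by over 1.5 times: without it ND-B12 fell 1.64-fold instead of 2.73-fold, COX5B 1.36-fold instead of 2.21-fold, COX8 1.46-fold instead of 2.97-fold, and ATPsynG 1.36-fold instead of 2.12-fold. Of the 28 falls, 9 were called without each library in turn: ND-18, ND-24, ND-39, ND-B14.7, ND-B15, ND-B22, UQCR-Q, COX7A and the duplicate COX7CL.

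ATPsynbeta was the single member that rose in Nicd OE. It stood at 294, 289 and 321 FPKM there and at 256, 126 and 215 FPKM in Ctrl. All Nicd OE libraries were above all Ctrl libraries. The 1.52-fold rise (log2 0.66 ± 0.23, adjusted p = 0.033) was lost without any of 4 libraries in FPKM (adjusted p = 0.061 to 0.072), and with median scaling it was 1.25 on the log2 scale (adjusted p = 0.00043). ND-42 and ND-49 were called as higher with median scaling alone (log2 0.88 and 0.64, adjusted p = 0.0014 and 0.0056), with FPKM means of 57.9 ± 14.51 and 32.9 ± 6.34 in Nicd OE and 47.8 ± 14.67 and 31.3 ± 4.04 in Ctrl.

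**Figure D4:**
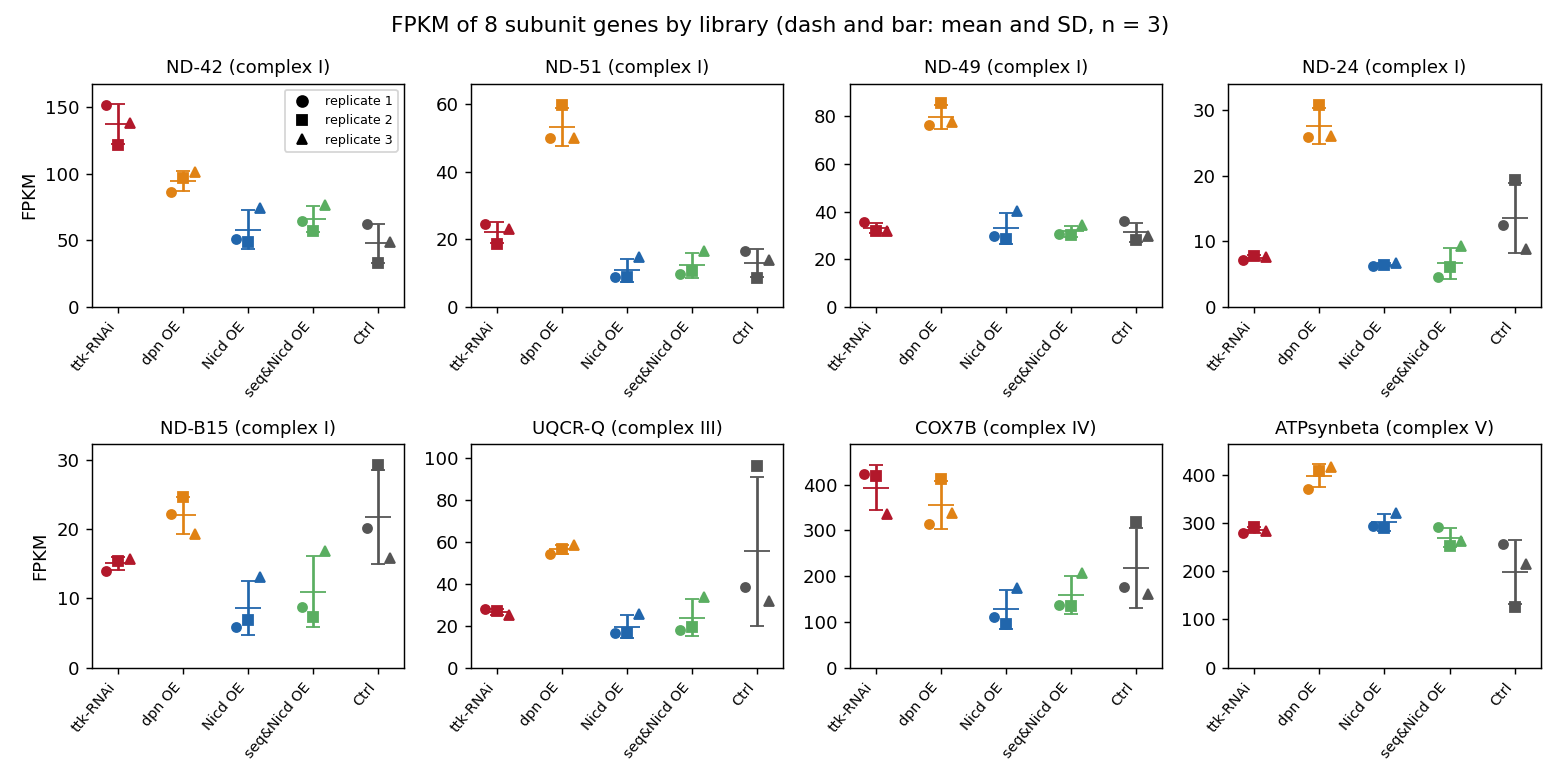
FPKM of 8 members (ND-42, ND-51, ND-49, ND-24, ND-B15, UQCR-Q, COX7B and ATPsynbeta) in each library of ttk-RNAi, dpn OE, Nicd OE, seq&Nicd OE and Ctrl, with circles, squares and triangles for replicates 1, 2 and 3, and a dash with a bar for the mean ± SD (n = 3). ND-42 is highest in ttk-RNAi and ND-51 and ND-49 in dpn OE, and for UQCR-Q the mean of Ctrl is carried by replicate 2 at 96.4 FPKM.

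In seq&Nicd OE the mean FPKM of 47 of the 61 members lay above that in Nicd OE and below that in Ctrl (77%, against 39.7% of all genes tested). This order belongs to FPKM as deposited. The log2 change over Nicd OE was above 0 for 53 of the 61 in FPKM and for 17 with median scaling. Among the 8209 genes tested it was above 0 for 5870 and 3670. Of 61 measured, 13 fell (21.3%) and 2 rose (3.28%) relative to Ctrl, where 21.2% of all genes tested fell and 13.3% rose. The median log2 change was -0.37 for the members and -0.17 for all genes. With median scaling 7 fell and 4 rose (20.3% and 20% of all genes) and the median was -0.20. Without Ctrl replicate 2 the counts with median scaling were 3 falls and 14 rises and the median was 0.09, while leaving out each other library gave 2 to 15 falls and 3 to 4 rises. In FPKM 4 fell without Ctrl replicate 2, 2 without seq&Nicd OE replicate 1 and 3 without replicate 2, and 4 rose without Ctrl replicate 1. In FPKM 8 of the 56 members that are not copies had all 3 seq&Nicd OE libraries below all 3 Ctrl libraries. None of the 56 had them above, against 21.3% below and 14.9% above among all genes. The genes that rose are the duplicates ND-B14.5AL and COX7AL, of which ND-B14.5AL passed the filter in part through these libraries.

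The falls in seq&Nicd OE comprised 8 genes of complex I, 1 of complex III, 2 of complex IV and 2 of complex V. UQCR-Q stood at 17.95, 19.5 and 33.9 FPKM in seq&Nicd OE, with replicate 3 inside the Ctrl range, and fell 2.33-fold, or 1.47-fold without Ctrl replicate 2 (log2 -1.07 ± 0.35, adjusted p = 0.026). ND-B22 stood at 4.21, 6.10 and 9.66 FPKM in seq&Nicd OE and fell 2.46-fold, or 1.54-fold without Ctrl replicate 2 (log2 -1.06, adjusted p = 0.034). ND-B18 stood at 13.1, 12.1 and 23.6 FPKM in seq&Nicd OE and at 26.8, 49.2 and 23.9 FPKM in Ctrl, a 2.05-fold fall (log2 -0.98, adjusted p = 0.033). With median scaling none of these was called (adjusted p = 0.071, 0.070 and 0.053), and each call in FPKM was lost without some library. Falls called on both scales were those of ND-18, ND-24, ND-B15, COX5A, ATPsynB, ATPsyngamma and COX7CL. For ATPsyngamma, the rotor shaft of the ATP synthase, the libraries stood at 25.0, 23.8 and 45.8 FPKM in seq&Nicd OE and at 60.1, 58.6 and 56.1 FPKM in Ctrl. It fell 1.85-fold without overlap (log2 -0.93 ± 0.25, adjusted p = 0.010; -0.77 with median scaling, adjusted p = 0.0054). When each library was left out in turn, 2 of the 13 falls were called every time, those of ND-18 and COX7CL. ND-18, at 2.55, 3.43 and 5.65 FPKM in seq&Nicd OE, was thus among the falls of 3 comparisons, in each of which it was set against the same Ctrl libraries.

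Set directly against Nicd OE, seq&Nicd OE was called as higher at ND-B17 and at 3 duplicate copies, of which ND-B14.5AL and ATPsynepsilonL passed the filter in part through the seq&Nicd OE libraries. Of the 56 measured members that are not copies, 1 rose (1.79%) and 0 fell in limma, where 15.8% of all genes tested rose and 3.85% fell. At an unadjusted p under 0.05 the count of falls was also 0, copies included. All 3 seq&Nicd OE libraries were above all 3 of Nicd OE for 4 of these 56 and below for 0, against 26.5% and 7.61% of all genes. The median log2 change was 0.25 for the members and 0.22 for all genes, and -0.16 for the members with median scaling, where 3 copies rose and 3 members fell (13.3% and 13.1% of all genes). With copies included, in FPKM 2 rose without Nicd OE replicate 2 and 1 without seq&Nicd OE replicate 3, and with median scaling 0 to 3 fell when a library was left out. The well expressed gene among them was ND-B17, an accessory subunit of complex I, at 31.1, 31.5 and 36.6 FPKM in seq&Nicd OE and 19.3, 18.7 and 24.6 FPKM in Nicd OE. It rose 1.58-fold without overlap (log2 0.65 ± 0.20, adjusted p = 0.031), but the call was lost in 5 of 6 fits that left out a library (adjusted p = 0.053 to 0.13) and with median scaling (log2 0.24, adjusted p = 0.26). Median scaling called falls of ND-49, ATPsynbeta and COX7CL (adjusted p = 0.045, 0.049 and 0.043), whose FPKM libraries overlapped between both groups. With same-numbered libraries as pairs, a pairing that the labels do not give, the replicate block left the fall of COX7CL (adjusted p = 0.017). ND-49 and ATPsynbeta were not called in that fit (adjusted p = 0.060 and 0.061).

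The duplicate copies ND-B14.5AL and COX7AL stood far above their Ctrl level in the libraries labelled ttk-RNAi, where the genes they resemble, ND-B14.5A and COX7A, were 1.77-fold and 1.82-fold higher. The members include 21 genes that are further copies of another subunit gene, such as COX7AL beside COX7A. They had few or no counted reads: 16 did not pass the filter, and 3 (ND-20L, ND-24L and COX5BL) were listed at 0 in every library. Apart from COX7CL no copy exceeded 4.08 FPKM in any library. Levels are therefore given as estimated reads, and the libraries labelled ttk-RNAi were the deepest, as given above. All exon bases of COX5BL are shared with Trmt6, and 67.0% of those of COX6AL2 with Ir75d and Prp6. Reads in shared bases may have been left out of the counts, so the low values of COX5BL and COX6AL2 do not show low expression. Folds are of mean FPKM, and their intervals are exact 95% Poisson intervals of the reads, which cover counting error only. Of the 5 copies that passed, 4 did so through the libraries labelled ttk-RNAi or seq&Nicd OE, so in these groups they had to differ from the groups where they are low. Their values there are given as a description, with no p. COX7AL and UQCR-11L passed through the libraries labelled ttk-RNAi alone, and COX7AL is tested in seq&Nicd OE.

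ND-B14.5AL, a copy of the complex I accessory gene ND-B14.5A (chr3L:22606369-22607126, plus strand), had 49, 47 and 52 reads in the libraries labelled ttk-RNAi and 44, 57 and 107 in seq&Nicd OE. It had 0, 0 and 0 reads in dpn OE, 0, 1 and 0 in Nicd OE and 0, 0 and 1 in Ctrl. Libraries with more than 1 read were thus all labelled ttk-RNAi or seq&Nicd OE. Against the single Ctrl read the libraries labelled ttk-RNAi were 88.8-fold higher (interval 15.9 to 3509; 59.2-fold without Ctrl replicate 1 or 2). The corresponding fold of seq&Nicd OE over Ctrl was 226 (interval 40.6 to 8934), and over Nicd OE 188 (interval 33.7 to 7423). The gene it copies, ND-B14.5A, was 1.77-fold higher in the libraries labelled ttk-RNAi than in Ctrl (adjusted p = 0.025) and was not called in seq&Nicd OE.

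COX7AL had 75, 75 and 84 reads in the libraries labelled ttk-RNAi, 1, 0 and 2 in dpn OE and 1, 0 and 0 in Nicd OE. In seq&Nicd OE it had 4, 3 and 8 reads, against 0, 0 and 2 in Ctrl. It was 70.2-fold higher in the libraries labelled ttk-RNAi than in Ctrl (interval 19.4 to 579) and 8.04-fold higher in seq&Nicd OE (interval 2.22 to 66.4, adjusted p = 0.017). Over Nicd OE the fold of seq&Nicd OE was 13.8 (interval 2.48 to 546, adjusted p = 0.018), a call lost without Nicd OE replicate 2 or seq&Nicd OE replicate 3 (adjusted p = 0.074 and 0.064). It lies 2625 bases from COX7A on chromosome 3R and shares no exon bases with it; COX7A was higher in the libraries labelled ttk-RNAi by 1.82-fold only. UQCR-11L had 24, 25 and 42 reads in the libraries labelled ttk-RNAi and 4, 0 and 0 in Ctrl, with at most 5 in any library of the other groups, a 16.03-fold difference from Ctrl (interval 6.26 to 58.8). ATPsynepsilonL, a copy of the epsilon subunit gene sun, had 27, 24 and 35 reads in the libraries labelled ttk-RNAi and 6, 7 and 8 in Ctrl, and 6, 7 and 17 in seq&Nicd OE against 3, 2 and 2 in Nicd OE. The folds were 2.33 (interval 1.52 to 3.76) and 4.11 (interval 2.0 to 10.2).

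COX7CL ran opposite to these copies and was the most abundant of them. It had 76, 80 and 69 reads in the libraries labelled ttk-RNAi, 67, 64 and 120 in dpn OE and 17, 8 and 32 in Nicd OE. In seq&Nicd OE it had 11, 4 and 12 reads, against 147, 40 and 140 in Ctrl. Nicd OE and seq&Nicd OE were below all Ctrl libraries, and the falls were 5.28-fold (adjusted p = 0.00041) and 10.8-fold (adjusted p = 3.0e-05), both called with median scaling. In the libraries labelled ttk-RNAi it fell 2.34-fold (adjusted p = 0.021), lost without Ctrl replicate 1, Ctrl replicate 3 or ttk-RNAi replicate 3 (adjusted p = 0.068 to 0.095). It starts 281 bases from COX7C on chromosome 2R, and no value here separates reads that cross from one gene to the other. Among copies below the filter, ND-49L had 17, 17 and 8 reads in the libraries labelled ttk-RNAi and 0 in each Ctrl library, and ATPsynbetaL had 25, 31 and 30 reads in the libraries labelled ttk-RNAi and 36, 35 and 23 in Ctrl. The germline and testis list of 6 genes in the table summed to 4.51 to 4.72 FPKM in the libraries labelled ttk-RNAi. The same sum was 0.365 to 0.798 for dpn OE, 0.458 to 0.522 for Nicd OE, 1.08 to 1.45 for seq&Nicd OE and 0.279 to 0.560 for Ctrl, and 1 of the genes was at 0 everywhere. These sums moved with the copies in the libraries labelled ttk-RNAi and in seq&Nicd OE, and their part in the result was not tested.

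**Figure D5:**
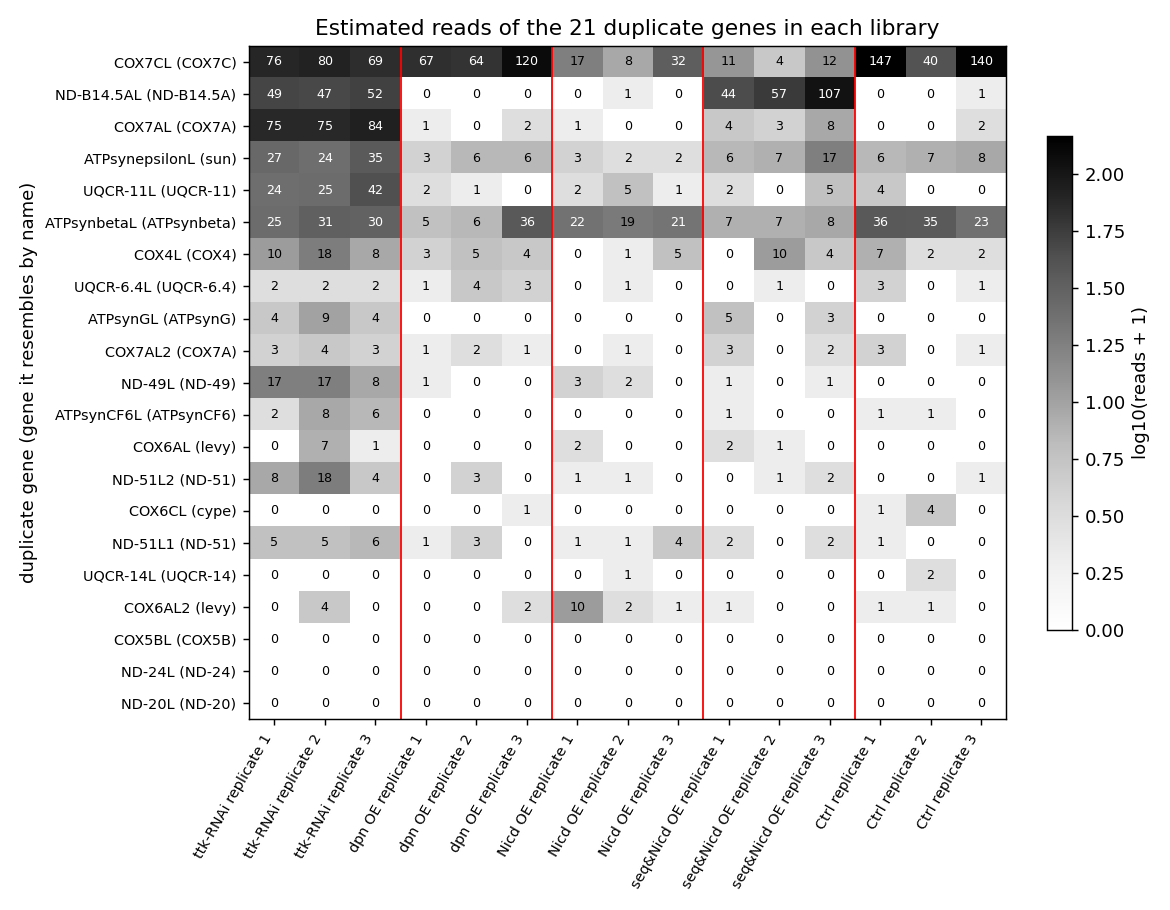
Estimated reads of the 21 duplicate copies (rows) in each of the 15 libraries (columns, grouped as ttk-RNAi, dpn OE, Nicd OE, seq&Nicd OE and Ctrl). ND-B14.5AL has 44 to 107 reads in the libraries of ttk-RNAi and seq&Nicd OE and at most 1 elsewhere, COX7AL has 75 to 84 in ttk-RNAi, and COX7CL is the copy with 40 to 147 reads in Ctrl.

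Members that could not be measured were few outside the copies. ND-MNLL and UQCR-14 were listed at 0 in each library; all exon bases of ND-MNLL are shared with CG45089 and all of UQCR-14 with CG32576, and reads in shared bases may have been left out of the counts. ND-B8, with 15.4% of its exon bases shared with Gs1l, stood at 0 to 0.781 FPKM over the 15 libraries. The 13 mitochondrially encoded genes of the same complexes were listed at 0 in every library, so nuclear and mitochondrial subunits of a complex could not be compared. The measured members had short transcripts, with a median exon length of 819 bases against 1901 for all genes tested, and 33 of the 61 share no exon bases with another gene.

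Complex II, whose subunits also serve in the TCA cycle, had a median log2 change of 0.99 in dpn OE in FPKM and of 0.33 with median scaling. Of its 6 genes the copies SdhAL and SdhBL were near 0 and 4 were measured. In FPKM 2 rose in the libraries labelled ttk-RNAi (30.7% of all genes tested), 4 in dpn OE (44.6%), 1 in Nicd OE (5.07%), where 1 fell (34.2%), and 1 in the seq&Nicd OE libraries (13.3%); with median scaling the rises were 2, 1, 2 and 1 in that order. SdhA, the flavoprotein, stood at 118 ± 4.20 FPKM in the libraries labelled ttk-RNAi, at 140.0 ± 7.91 in dpn OE, at 96.9 ± 19.2 in Nicd OE, at 98.1 ± 18.3 in seq&Nicd OE and at 52.2 ± 28.2 in Ctrl (SD, n = 3). It was higher than Ctrl in all 4 groups on both scales; in FPKM the log2 changes were 1.36, 1.60, 1.06 and 1.08 (adjusted p = 0.0059, 0.0015, 0.028 and 0.029), and the calls for Nicd OE and for seq&Nicd OE were lost without Ctrl replicate 2 (adjusted p = 0.053 each) and without further libraries (adjusted p up to 0.078 and 0.11). SdhB, the iron-sulfur subunit, averaged 9.81 ± 1.43 FPKM in dpn OE and 2.38 ± 1.49 in Nicd OE, against 4.42 ± 0.77 in Ctrl (log2 1.0 and -0.76, adjusted p = 0.0072 and 0.044, the second lost without any of 4 libraries); Nicd OE was 2.9-fold lower without its replicate 3 and 1.86-fold lower with it. SdhC rose to 78.8 ± 6.80 FPKM in dpn OE, against 39.8 ± 6.24 in Ctrl (adjusted p = 0.0026). SdhD, the other membrane anchor, rose to 53.8 ± 3.52 FPKM in the libraries labelled ttk-RNAi and 43.2 ± 4.31 in dpn OE, against 23.6 ± 6.31 in Ctrl (adjusted p = 0.0020 and 0.011). With median scaling SdhB, SdhC and SdhD were not called in dpn OE (log2 0.38, 0.28 and 0.19, adjusted p = 0.16, 0.30 and 0.35), nor was SdhB in Nicd OE (log2 -0.36, adjusted p = 0.20).

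Subunits under other names and mitochondrial carriers, of which 11 were measured, gave few calls. Ant2, an adenine nucleotide carrier, averaged 19.8 ± 2.02 FPKM in the libraries labelled ttk-RNAi and 8.87 ± 1.26 in dpn OE, against 3.56 ± 0.43 in Ctrl (log2 2.19 and 1.11, adjusted p = 8.0e-07 and 0.00066). sesB, the major carrier of that kind, averaged 665 ± 66.8 FPKM in dpn OE and 375 ± 37.2 in Ctrl (log2 0.83, adjusted p = 0.0019), and in dpn OE 3 of the 11 rose (44.6% of all genes). With median scaling neither gene was called in dpn OE (adjusted p = 0.061 and 0.69), and Ant2 was called in the libraries labelled ttk-RNAi (log2 1.84). In dpn OE blw rose 1.74-fold in FPKM (log2 0.81), called in limma without each library in turn (adjusted p up to 0.019). Cyt-c1 was 1.46-fold higher in the libraries labelled ttk-RNAi (log2 0.55), a call lost without any of the 6 libraries (adjusted p = 0.052 to 0.13). Neither of these rises was called with median scaling. Mpcp2, the phosphate carrier, averaged 307 ± 2.31 FPKM in the libraries labelled ttk-RNAi and 288 ± 47.6 in seq&Nicd OE, against 488 ± 31.0 in Ctrl (log2 -0.67 and -0.77, adjusted p = 0.022 and 0.013), both lost without some libraries (adjusted p up to 0.066 and 0.068). In the libraries labelled ttk-RNAi 2 of the 11 rose and 1 fell (30.7% and 13.7% of all genes), in seq&Nicd OE 1 fell (21.2% of all genes), and in Nicd OE limma called 0 in FPKM, with 4 lower at an unadjusted p under 0.05.

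Of the assembly factors and the genes of mitochondrial biogenesis that were measured, most rose in dpn OE. The lists held 14 and 23 entries, of which 8 and 19 were matched to genes. Of 8 assembly factors measured 6 rose in dpn OE, with a median log2 change of 1.25, and 5 rose with median scaling, with a median of 0.62 (44.6% and 22.4% of all genes rose on these scales). Cox11, needed for copper insertion into complex IV, averaged 11.0 ± 0.79 FPKM in dpn OE and 2.95 ± 1.03 in Ctrl (log2 1.64, adjusted p = 0.00011). Sdhaf3, an assembly factor of complex II, averaged 6.62 ± 0.97 FPKM in dpn OE and 1.61 ± 0.57 in Ctrl (log2 1.56, adjusted p = 5.7e-05). Of the 16 genes of mitochondrial biogenesis and dynamics measured, 13 rose in dpn OE and 1 fell, with a median of 1.18, and 9 rose and 2 fell with median scaling, with a median of 0.54 (22.4% and 25.0% of all genes). clu, which is needed for the distribution of mitochondria, averaged 8.20 ± 1.17 FPKM in dpn OE and 1.63 ± 1.21 in Ctrl (5.03-fold, or 8.42-fold without Ctrl replicate 1; log2 1.90, adjusted p = 3.7e-05). The fall was that of Myc, at 103 ± 10.6 FPKM in dpn OE and 404 ± 235 in Ctrl (log2 -1.75, adjusted p = 0.0032), and 61.2% of its exon bases are shared with other genes. In the other comparisons with Ctrl these lists gave 5 calls or fewer. Scox rose in the libraries labelled ttk-RNAi (log2 0.92, adjusted p = 0.015, lost without ttk-RNAi replicate 1). So did 4 genes of biogenesis, led by ewg and Lon (log2 1.79 and 1.04, adjusted p = 0.00069 and 0.0029). These rises were 1 of 8 and 4 of 16, where 30.7% of all genes tested rose. Falls were 1 of 8 and 2 of 16 in Nicd OE (34.2% of all genes). In seq&Nicd OE they were 1 of 8 and 1 of 16 (21.2%). Bcs1, an assembly factor of complex III, was called as lower both for Nicd OE and for seq&Nicd OE (log2 -0.79 and -0.85, adjusted p = 0.0077 and 0.0049; the first was not called with median scaling, adjusted p = 0.087), and Dref and Opa1 fell in Nicd OE (log2 -0.95 and -0.93, adjusted p = 0.0039 and 0.025, the second lost without any of 3 libraries and with median scaling, adjusted p = 0.21). mtSSB, the mitochondrial single-strand binding protein, was called as lower in seq&Nicd OE than in Ctrl (log2 -0.58, adjusted p = 0.024, lost without any of 3 libraries). ewg was also higher in seq&Nicd OE than in Nicd OE (log2 1.56, adjusted p = 0.0042), as 1 of 16, where 15.8% of all genes rose.

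Among the pathways that feed the chain, the TCA cycle and glycolysis each held strong single changes in opposite directions. Shares of all genes tested that rose and fell in FPKM, given above, were 30.7% and 13.7% in the libraries labelled ttk-RNAi and 44.6% and 12.5% for dpn OE; for Nicd OE they were 5.07% and 34.2%, and with seq 13.3% and 21.2%. Of 12 TCA cycle and pyruvate dehydrogenase genes, 4 rose and 1 fell in the libraries labelled ttk-RNAi, 6 rose and 2 fell in dpn OE, 1 rose and 2 fell in Nicd OE, and 3 fell in seq&Nicd OE, so that the shares that rose in dpn OE and in the libraries labelled ttk-RNAi were near those of all genes; with median scaling 3 rose and 2 fell, 2 rose and 4 fell, 5 rose, and 2 rose and 3 fell. ScsbetaA, a subunit of succinyl-CoA synthetase, averaged 245 ± 23.0 FPKM in the libraries labelled ttk-RNAi and 76.7 ± 29.5 in Ctrl (log2 1.75, adjusted p = 0.00014). Idh3b, a subunit of NAD-dependent isocitrate dehydrogenase, averaged 9.21 ± 0.63 FPKM in the libraries labelled ttk-RNAi, 13.1 ± 3.41 FPKM under Nicd OE and 9.45 ± 1.78 FPKM under seq&Nicd OE, against 25.3 ± 5.45 in Ctrl (log2 -1.35, -0.91 and -1.33, adjusted p = 0.00018, 0.0059 and 0.00032; not called in Nicd OE with median scaling, adjusted p = 0.12). Idh3g, another subunit of that enzyme, averaged 71.2 ± 6.02 FPKM in dpn OE and 62.6 ± 7.86 in Nicd OE, against 26.7 ± 14.8 in Ctrl (log2 1.58 and 1.39, adjusted p = 0.0015 and 0.0062). Pdha, a subunit of pyruvate dehydrogenase, averaged 14.3 ± 3.51 FPKM in seq&Nicd OE and 27.7 ± 7.14 in Ctrl (log2 -0.90, adjusted p = 0.013, lost without seq&Nicd OE replicate 2). kdn, the citrate synthase, fell to 14.2 ± 0.43 FPKM in dpn OE, against 55.1 ± 20.1 in Ctrl (log2 -1.81, adjusted p = 6.8e-05). Of 11 glycolytic genes, 3 fell in the libraries labelled ttk-RNAi, 3 rose and 4 fell in dpn OE, 4 fell in Nicd OE, and for seq&Nicd OE the count of falls was 1. With median scaling 6 fell, 1 rose and 7 fell, 5 rose and 1 fell, and 1 fell in that order. In Nicd OE the genes called as higher with median scaling were others than the 4 that fell in FPKM. Hex-A, a hexokinase, averaged 95.5 ± 4.84 FPKM in the libraries labelled ttk-RNAi, 33.01 ± 6.87 under dpn OE, 39.6 ± 16.4 under Nicd OE and 33.5 ± 11.2 under seq&Nicd OE, against 248 ± 58.4 in Ctrl (log2 -1.34, -2.87, -2.66 and -2.89, adjusted p = 0.0021, 6.2e-06, 1.5e-05 and 2.6e-06). Gapdh2, a glyceraldehyde-3-phosphate dehydrogenase, fell to 44.7 ± 0.60 FPKM in the libraries labelled ttk-RNAi, against 118 ± 29.5 in Ctrl (log2 -1.35, adjusted p = 0.00014). Ldh, the lactate dehydrogenase, averaged 7.93 ± 2.14 FPKM in Nicd OE and 96.2 ± 133 in Ctrl (log2 -2.32, adjusted p = 0.018; not called with median scaling, adjusted p = 0.10). Its fall was 12.1-fold, or 2.47-fold without Ctrl replicate 2, and the call was lost without Nicd OE replicate 1 or 2 (adjusted p = 0.055 and 0.061). Gapdh1 was higher in seq&Nicd OE than in Nicd OE (log2 0.63, adjusted p = 0.030, lost without any of 4 libraries and with median scaling, adjusted p = 0.46). Pgk, a phosphoglycerate kinase, averaged 32.0 ± 2.41 FPKM in dpn OE and 7.68 ± 3.17 in Ctrl (log2 1.99, adjusted p = 1.5e-05). The marker sums given at the start differ between the same groups, and their part in these levels was not tested.

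Which group had the highest and the lowest mean was shared by most members in FPKM. Of the 56 members without duplicates, 37 (66.1%) had their highest group mean in dpn OE, against 50.3% of all genes tested, and 46 (82.1%) had their lowest in Nicd OE, against 47.9% of all genes. Relative to the median gene 27 of the 56 (48.2%) were highest in Ctrl, against 19.9% of all genes, and 25 (44.6%) were lowest in the libraries labelled ttk-RNAi, against 25.8%. Neighbours in these orders mostly lay within the spread of Ctrl. The members called on both scales were few: in dpn OE the rises of ND-15, ND-49, ND-51 and UQCR-C2 and the fall of ND-18, in Nicd OE the rise of ATPsynbeta and the falls of ND-B15 and COX7CL, and in the libraries labelled ttk-RNAi the rise of ND-42 with 6 falls, namely ND-13B, ND-24, ND-PDSW, ND-SGDH, ATPsynG and COX7CL. In seq&Nicd OE against Ctrl they were the 7 falls named above and the rise of COX7AL, and in seq&Nicd OE against Nicd OE the rise of COX7AL. The calls of copies in groups through which they passed the filter are not counted here: ND-B14.5AL, UQCR-11L and COX7AL in the libraries labelled ttk-RNAi, ND-B14.5AL in both comparisons of seq&Nicd OE, and ATPsynepsilonL in that against Nicd OE.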

How the data were processed

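RNA-seq had been made from 15 libraries in 5 groups of 3, grouped by title. The authors deposited 1 FPKM value per gene and library; per the submitters' processing notes, STAR 2.6.1a, DESeq2 and the BDGP6 genome were used. How reads were counted, and whether by strand, is not given in the sources used here. Symbols, coordinates and exon lengths came from Ensembl release 115 (BDGP6.54), which held 17251 of the 17558 identifiers with a symbol. Reads were estimated from the step of low values: 97.8% to 98.3% of values of up to 20 reads were whole within 0.02 reads. A gene of 1 kb gained 0.018 to 0.041 FPKM per read.

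From the deposited FPKM, log2(FPKM + 1) was computed for the 8209 genes with at least 1 FPKM in at least 3 libraries. A model of 5 group means was fitted with limma 3.58.1 in R 4.3.3 (trend on the mean level, two-sided, 10 residual degrees of freedom), with Benjamini-Hochberg adjustment over all genes of a comparison, and tested on simulated data. The pseudocount lowers the fold of low genes, so folds in the text are ratios of mean FPKM. Alternatives were a pseudocount of 0.1, no filter, a filter of 5 FPKM, median scaling, median-of-ratios scaling, a replicate block and leaving out each library. Deviations from the group mean correlated at 0.20 to 0.43 for same-numbered libraries of seq&Nicd OE and Nicd OE. For libraries of different numbers they correlated at -0.36 to 0.26, so the numbers do not settle which libraries are pairs. A blocked fit that takes the numbers as pairs gave the same counts of 4 rises and 0 falls.

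Named genes were the 3 members with the highest mean per complex, all duplicates, and the 3 called rises and falls with the largest log2 change per comparison among genes with a mean of at least 10 FPKM in 1 group. In the lists, the 2 called genes with the largest change in each comparison were named, and blw and Cyt-c1 were added to them. ND-18, the other core genes, and ATPsyngamma, ND-15 and other members named beyond this rule were chosen after their values were seen. The members and all lists were chosen with earlier results of these data known. No sequences are shown.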

Additional observations from a re-analysis of the deposited data

How the results depend on the processing

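Counts of members that rose or fell, here over all 61 with the copies, depended mostly on the scaling and on single libraries. With median scaling the rises and falls were 4 and 13 in the libraries labelled ttk-RNAi, 4 and 9 in dpn OE, 3 and 2 in Nicd OE, then 4 and 7 in seq&Nicd OE, each against Ctrl, with 3 falls in seq&Nicd OE against Nicd OE. With median-of-ratios scaling they were 6 and 11, 5 and 5, 3 and 2, and 5 and 6 in the same order. A filter of 5 FPKM left 6 rises in the libraries labelled ttk-RNAi, 0 in seq&Nicd OE against Ctrl and 1 against Nicd OE, since it removes the duplicates. Scaling to equal assigned reads gave 4 rises and 1 fall in Nicd OE, with 7 and 3 in seq&Nicd OE. Without Ctrl replicate 2, Nicd OE replicate 3 and seq&Nicd OE replicate 3 there were 21 rises in the libraries labelled ttk-RNAi, 42 in dpn OE and 13 in seq&Nicd OE against Nicd OE, and the falls against Ctrl numbered 43 in Nicd OE, with 33 in seq&Nicd OE. Median scaling without these libraries gave 16 rises and 11 falls in the libraries labelled ttk-RNAi, 19 rises and 7 falls in dpn OE, 17 and 2 in Nicd OE, then 15 and 10 in seq&Nicd OE, and 2 rises and 8 falls in seq&Nicd OE against Nicd OE. These last 3 alternatives, and median scaling with the block or without each library in turn, were chosen after seeing the data. Over all genes the median log2 change in FPKM was 0.24, 0.50, -0.40, -0.17 and 0.22 in the 5 comparisons, and -0.05, -0.02, -0.03, -0.05 and -0.06 with median scaling. The cause of these shifts was not tested.

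Leaving out each library in turn gave 3 to 14 rises and 2 to 9 falls in the libraries labelled ttk-RNAi, 15 to 32 rises and 1 fall each time in dpn OE, 0 to 1 rises and 10 to 40 falls in Nicd OE, with 2 to 4 rises and 2 to 19 falls in seq&Nicd OE. In seq&Nicd OE against Nicd OE it gave 1 to 6 rises and 0 falls. A gene that no longer passed the filter without a library was not refitted there.

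The replicate block gave 9 rises and 6 falls in the libraries labelled ttk-RNAi, 23 and 1 in dpn OE, 1 and 29 in Nicd OE, with 2 and 12 in seq&Nicd OE. With median scaling and the block there were 4 and 12, 4 and 10, 3 and 1, and 4 and 7, with 1 fall in seq&Nicd OE against Nicd OE. Same-numbered libraries of a group and Ctrl correlated at -0.19 to 0.26 and share only a number. Of the single-gene values, 1400 kept their side of the threshold, 164 lost the call, 84 gained one and 2 were classed as reversed. Those 2 were ATPsynG in dpn OE without the 3 libraries (log2 0.35) and ND-20 in Nicd OE with equal assigned reads (log2 0.45). These classes do not count every change of sign. In dpn OE the log2 change was above 0 for 45 of the 61 members in FPKM and for 22 with median scaling. With 3 libraries a group and no molecular identifiers, amplification and counting error cannot be separated.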
